A study of Mus musculus with 2 samples.

Results

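GATA4 occupancy at 10 forkhead genes was read from ChIP-seq of whole adult mouse liver. The genes were *Foxn3*, *Foxn2*, *Foxp1*, *Foxp4*, *Foxo1*, *Foxo3*, *Foxk1*, *Foxj2*, *Foxj3* and *Foxq1*, and they were chosen from earlier results on these same peaks, with the group of sites at *Foxn3* already known. Of the 4409 GATA4 occupied sites (OS) in the common list, 10 had their midpoint in the body of one of these genes or within 50 kb of it. These OS lay at 5 of the 10 genes, and 6 of them at *Foxn3* alone. The labels list 1 ChIP sample, made with the GATA4 C-20 antibody, and 1 input sample that was not immunoprecipitated. Both came from liver of C57BL/6 x Sv129 mice, aged 2 to 3 months by the labels, and neither group carries a treatment or an excised allele in the labels. The methods describe biological replicates that each pooled livers of 2 mice, and they state a slightly older age range than the labels. Every peak list covers the replicates together, so no value per replicate can be given. Whole liver holds hepatocytes, endothelial cells and other cells, and the lists do not tell in which of them a site was occupied.

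Forkhead (FOX) factors are transcription factors named for a winged-helix DNA-binding domain. In the liver, FOXA proteins open chromatin early in development and work beside GATA factors, while FOXO proteins are kept out of the nucleus by insulin signalling and switch on glucose production during fasting. GATA4 is a zinc-finger factor that recognises WGATAR, that is A or T, then GATA, then A or G. In ChIP-seq an antibody against the factor enriches the DNA it sits on, and a peak marks a stretch where sequenced fragments pile up over the input.

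Stretches of DNA at 9 of the OS are printed to show the motif and its surroundings. Each line gives the WGATAR nearest to the midpoint of an OS with 15 bases on both sides, read 5′ to 3′ on the strand where the motif reads WGATAR, with the motif in capitals. For *Foxn3* OS 2808, which held no complete WGATAR, the motif shown ends 1 base outside the peak. Names combine the gene with the number of the OS in the common list, and positions refer to the mm9 genome build, with the first base of a chromosome as 1.
Foxn3 OS 80 (chr12:100678407-100678442, minus strand): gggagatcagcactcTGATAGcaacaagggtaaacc
Foxn3 OS 710 (chr12:100472734-100472769, plus strand): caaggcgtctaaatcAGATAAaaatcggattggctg
Foxn3 OS 1223 (chr12:100657169-100657204, minus strand): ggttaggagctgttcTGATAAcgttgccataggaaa
Foxn3 OS 2332 (chr12:100628845-100628880, plus strand): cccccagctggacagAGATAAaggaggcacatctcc
Foxn3 OS 2808 (chr12:100664604-100664639, plus strand): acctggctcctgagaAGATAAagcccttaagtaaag
Foxn2 OS 364 (chr17:88860026-88860061, minus strand): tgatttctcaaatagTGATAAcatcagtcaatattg
Foxp1 OS 4342 (chr6:99143872-99143907, minus strand): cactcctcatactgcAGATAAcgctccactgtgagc
Foxo1 OS 3407 (chr3:52146849-52146884, minus strand): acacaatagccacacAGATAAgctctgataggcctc
Foxq1 OS 3412 (chr13:31623187-31623222, plus strand): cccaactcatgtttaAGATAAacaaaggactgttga

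*Foxn3* OS 80 is printed whole because it came earliest in the list of all 10, with both of its motifs in capitals on the plus strand, where the one on the opposite strand reads as its reverse complement. *Foxo1* OS 3407 is shown for its pair of motifs on the same strand, and *Foxn3* OS 2808 for its missing motif, with the GATA core at its right end in capitals. The latter 2 were picked after their values were seen.
Foxn3 OS 80 (chr12:100678307-100678559, plus strand): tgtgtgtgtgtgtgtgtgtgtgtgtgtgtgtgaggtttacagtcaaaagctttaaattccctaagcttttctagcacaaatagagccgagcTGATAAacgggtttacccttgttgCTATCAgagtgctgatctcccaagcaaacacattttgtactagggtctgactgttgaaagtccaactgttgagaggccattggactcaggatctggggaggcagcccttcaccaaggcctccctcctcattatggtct
Foxo1 OS 3407 (chr3:52146836-52146925, plus strand): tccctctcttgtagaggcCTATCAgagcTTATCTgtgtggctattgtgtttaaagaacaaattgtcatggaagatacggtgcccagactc
Foxn3 OS 2808 (chr12:100664535-100664623, plus strand): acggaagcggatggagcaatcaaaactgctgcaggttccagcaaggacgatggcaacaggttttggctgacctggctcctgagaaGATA

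The files give a position and a number for each peak but no strength, since the score is 1000 for all of them. The number is therefore the only graded value, and what it follows is not stated in the files. The methods mention that the reproducibility step ranked SPP peaks on signal and MACS2 peaks on p-value. A low number is read here only as an early place in the list. No read counts were used, so the depth behind a single peak is unknown.

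*Foxn3* encodes a forkhead repressor with a role in hepatic glucose control, and it held 6 of the 10 OS. The gene spans chr12:100433213-100688284 on the minus strand, a length of 255 kb, with 2 annotated transcripts that start 56.3 kb apart. The count chose the gene and is given as a description. Of 22380 protein-coding genes, 0.201% had at least 6 OS under the same rule, and 22 genes had more. Long genes offer more room. Among the 954 protein-coding genes of at least 200 kb, 1.89% reached 6 OS and 36.2% had at least 1.

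The *Foxn3* OS were gathered at the 5′ end of the gene. From the start of the longer transcript, their midpoints lay at 9.85 kb (OS 80), 23.7 kb (OS 2808), 31.1 kb (OS 1223), 54.8 kb (OS 825), 59.4 kb (OS 2332) and 216 kb (OS 710). The leading 5 thus fell within 49.6 kb of each other. All 5 were in intron 1 of the longer transcript, which is 61.1 kb long and makes up 24.0% of the gene, and OS 710 was in intron 4. The shorter transcript begins inside that first intron. OS 825 lay 1.44 kb upstream of its TSS and OS 2332 lay 3.16 kb downstream, in its own intron 1, so this second start was flanked by OS on both sides. Between both starts lay 4 of the 6 OS. The *Foxn3* OS were not exonic in either transcript. The gaps between neighbouring midpoints were 13.9, 7.41, 23.7 and 4.60 kb among the leading 5, and 156 kb from there to OS 710.

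Each of the leading 5 *Foxn3* OS had 4 other OS within 50 kb. That many neighbours were found for 3.36% of the 4399 other OS, while OS 710 and the OS of the other genes had 0. The leading 5 are each other's neighbours and their grouping was known beforehand, so these values are a description. Beyond the limit, the next common OS at *Foxn3* was number 905, 97.0 kb from the gene.

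**Figure D1:**
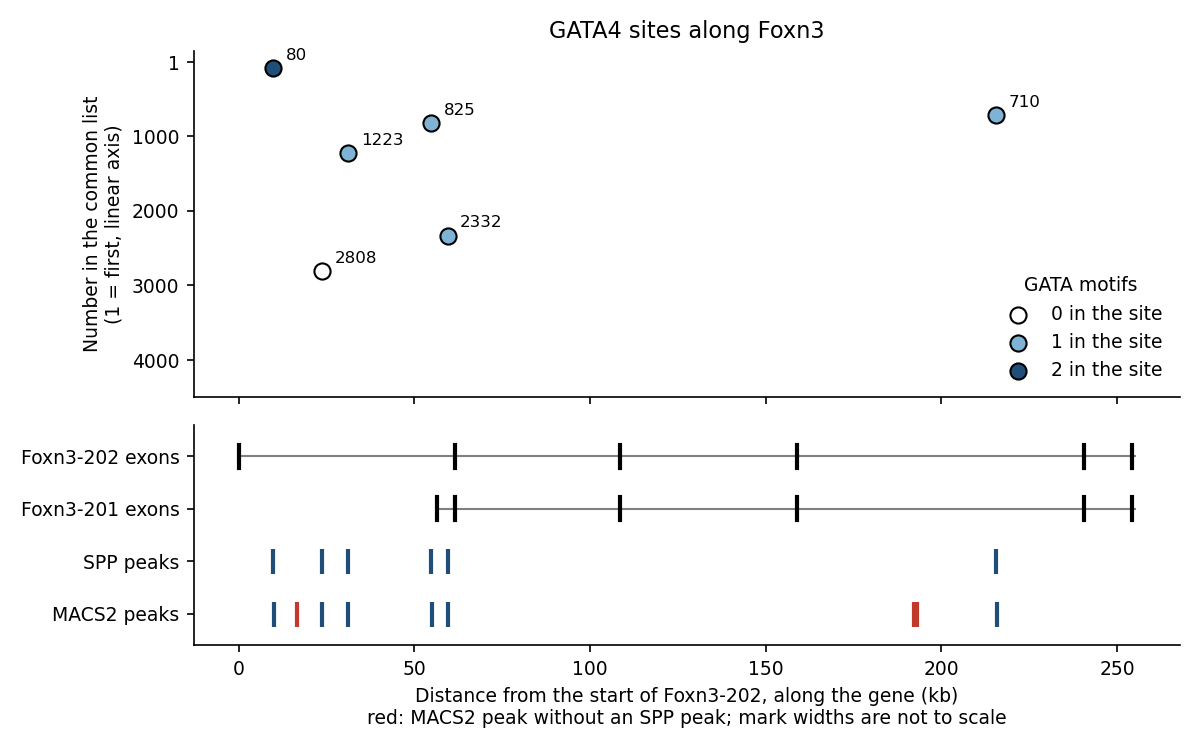
The upper panel plots each common OS of *Foxn3* by its distance from the start of the longer transcript in kb and its number in the common list, with the fill for its count of GATA motifs, and the lower panel gives the exons of both transcripts, the longer one on top, and the peaks of the SPP and MACS2 lists, in red where a MACS2 peak met no SPP peak. The 5 OS between 9.85 and 59.4 kb surround the second transcript start, and OS 710 stands apart at 216 kb.

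In the common list the 6 *Foxn3* OS ran from number 80 to number 2808, with a median of 1024, against 2205 for the 4399 OS at no member gene. The overlapping MACS2 peaks were numbers 174 (OS 80), 795 (OS 710), 2094 (OS 825), 1509 (OS 1223), 2224 (OS 2332) and 4143 (OS 2808). By MACS2 number the gap was smaller, with a median of 1801.5 against 2195 for the other OS. OS 80 was first and OS 2808 last of the 6 in both lists, whereas OS 825 came before OS 1223 in the common list and after it in the MACS2 list. Their widths ran from 89 bp (OS 2808) to 253 bp (OS 80). The difference in median number was not tested in either list, as OS of 1 gene share their source and no replicate values exist.

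SPP and MACS2 differed over *Foxn3*. All 6 SPP peaks met a MACS2 peak, but MACS2 had 9 peaks here, and 3 of them met no SPP peak. The earliest of the 3 was MACS2 peak 2392 (chr12:100671529-100671933), 16.6 kb from the start of the longer transcript, which held 2 WGATAR and lay between OS 80 and OS 2808. In that stretch of the MACS2 list, peaks 2001 to 2500, 95.6% met an SPP peak, so peak 2392 belongs to a small remainder. The other 2, MACS2 peaks 5138 and 5376, were neighbours in intron 4 at 192 and 193 kb with 5 and 3 WGATAR. In their stretch, peaks 5001 to 5500, only 32.4% met an SPP peak. With the MACS2 list, intron 1 held 6 peaks and intron 4 held 3.

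*Foxn2*, the closest relative of *Foxn3* among the 10 genes, held a single OS with an early number. The gene lies at chr17:88840051-88889873 on the plus strand. OS 364 (chr17:88859943-88860130) was 188 bp wide, lay 20.0 kb downstream of the start of the main transcript in its intron 1, and overlapped MACS2 peak 694. Of the 10 OS, only *Foxn3* OS 80 had an earlier number in the common list. The nearest TSS was that of a small nucleolar RNA inside the gene, snoU13, at 1.24 kb, and the nearest protein-coding TSS was that of *Foxn2*.

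*Foxo1* and *Foxo3* encode the main insulin-restrained forkhead factors of the liver. *Foxo1* (chr3:52072259-52154031, plus strand) held OS 3407 in its first intron, 74.6 kb from the TSS. This OS was 90 bp wide and corresponded to MACS2 peak 5663, a late number in a list of 5867. The nearest TSS, at 73.5 kb, was that of RP24-337A16.1, and the nearest protein-coding TSS was that of *Foxo1*. A further SPP peak, number 4679, lay in exon 3, in the 3′ UTR, and met no MACS2 peak. At *Foxo3* (chr10:41901647-41996561, minus strand) none of the 3 lists had a peak, and the nearest common OS was 189 kb away. The next OS beyond the limit at *Foxo1* was number 1253, 54.8 kb downstream of the gene, so a slightly wider limit would have included it.

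*Foxp1*, a repressor known from blood, heart and brain and present in liver, is longer than *Foxn3* at 341 kb (chr6:98875332-99216526, minus strand) but held only OS 4342. The OS was 320 bp wide, stood near the end of the common list and overlapped MACS2 peak 5122. Its midpoint lay 30.9 kb upstream of the start shared by several shorter *Foxp1* transcripts and in intron 2 of the coding transcripts that begin at the 5′ end of the gene. Each caller added a peak of its own at *Foxp1*, SPP peak 4791 and MACS2 peak 5372, and neither met a peak of the other list. *Foxp4*, its paralogue, had no peak in any list, and the nearest OS was 412 kb from the gene.

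*Foxq1*, an intronless gene best known from the satin coat of mice, was the member whose OS lay outside the gene. OS 3412 (chr13:31623060-31623379) was 26.8 kb upstream of the gene (chr13:31650039-31652839, plus strand), in sequence between genes, and its nearest TSS was that of *Foxq1*. It overlapped MACS2 peak 3116 and held 2 WGATAR. The other 9 OS lay inside the body of their gene, so the limit of 50 kb brought in OS 3412 alone.

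*Foxk1*, linked to glycolysis and autophagy genes, and *Foxj2* and *Foxj3* held no OS, and the SPP and MACS2 lists had no peak at them either. Their nearest common OS were 153 kb (*Foxk1*), 992 kb (*Foxj2*) and 1358 kb (*Foxj3*) away. Together with *Foxo3* and *Foxp4* they made up the 5 members without an OS, which is reported as no peak in the lists, not as an absence of GATA4. Over all protein-coding genes, 27.7% had at least 1 OS in the body or within 50 kb, against 5 of these 10. Nothing is read from that gap, since these peaks chose the genes.

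**Figure D2:**
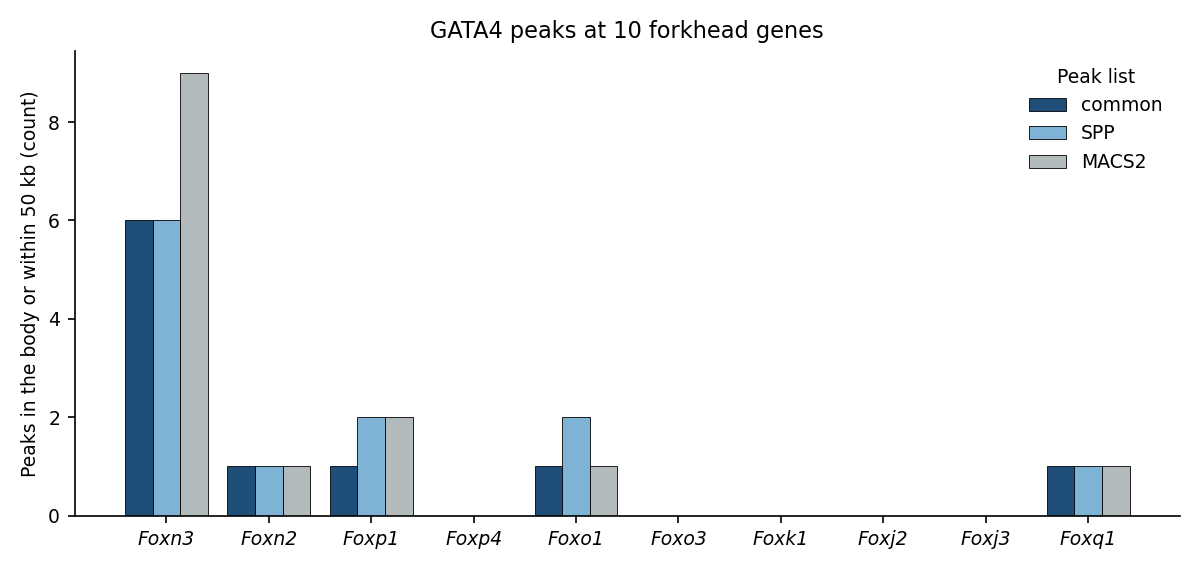
Bars give the number of peaks in the body or within 50 kb of each of the 10 genes, by peak list (common, SPP, MACS2). *Foxn3* holds 6, 6 and 9 peaks, *Foxn2* and *Foxq1* hold 1 in each list, *Foxp1* and *Foxo1* hold 1 or 2, and 5 genes hold none.

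Per 100 kb of gene and flanks, *Foxn3* had 1.69 OS, *Foxq1* 0.973, *Foxn2* 0.667, *Foxo1* 0.550 and *Foxp1* 0.227. The merged windows of all protein-coding genes had 0.233 per 100 kb. Without *Foxn3* the members held 4 OS in 1.70 Mb, or 0.235 per 100 kb, so the higher figure for all 10, 0.486, came from *Foxn3*. A value of 1 OS per gene carries no error estimate, and the order among *Foxq1*, *Foxn2*, *Foxo1* and *Foxp1* reflects window length only.

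**Figure D3:**
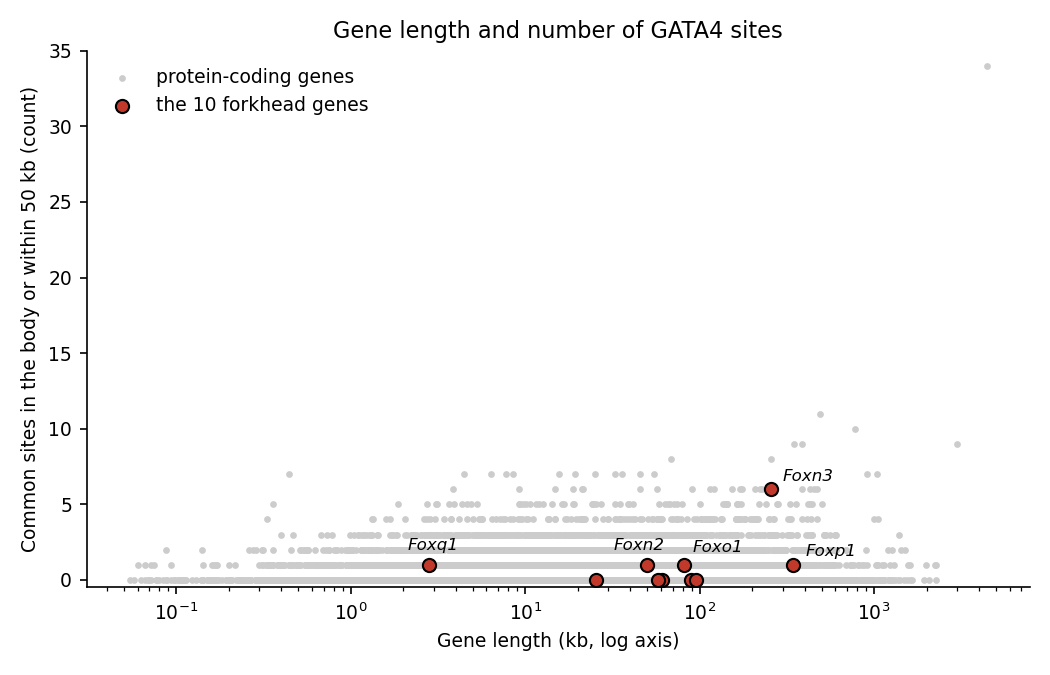
Each grey point is a protein-coding gene placed by its length in kb (log axis) and its number of common OS in the body or within 50 kb, and red points are the 10 forkhead genes. *Foxn3* (255 kb, 6 OS) lies above *Foxp1* (341 kb, 1 OS), and 688 protein-coding genes are longer than *Foxn3*, of which 14 have at least 6 OS.

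Of the 10 OS, 9 contained WGATAR (90.0%, with a Wilson 95% interval from 59.6 to 98.2), against 82.9% (81.7 to 84.0) of the 4399 other OS. The interval covers counting only, and the difference was not tested. In *Foxn3* OS 2808, the exception, the last 5 bases read AGATA, and the genome completes AGATAA with the first base past the edge of the peak. Allowing a motif to run over the edge, a choice made after the data were seen, gave 10 of 10. A second WGATAR was present in OS 80, OS 3407 and OS 3412, 3 of 10 OS, compared with 34.7% of the others. These pairs differed in layout. The motifs of OS 80 stood on opposite strands 24 bp apart, those of OS 3407 on the same strand 10 bp apart, and those of OS 3412 on opposite strands 68 bp apart.

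The form AGATAA accounted for 6 of the 12 motifs, TGATAA for 4 and TGATAG for 2. AGATAG, which made up 17.6% of the 5722 motifs in the other OS, did not occur. Of the 12 motif centres, 10 lay within 30 bp of the midpoint of their OS, and the median distance was 16 bp. In the other OS, 54.0% of motifs were that close, with a median of 28 bp. The differences in form and distance were not tested, and the 12 motifs come from only 9 OS. Nearest to a midpoint was the motif of *Foxn2* OS 364, at 7 bp, and farthest the second motif of *Foxq1* OS 3412, at 53 bp.

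**Figure D4:**
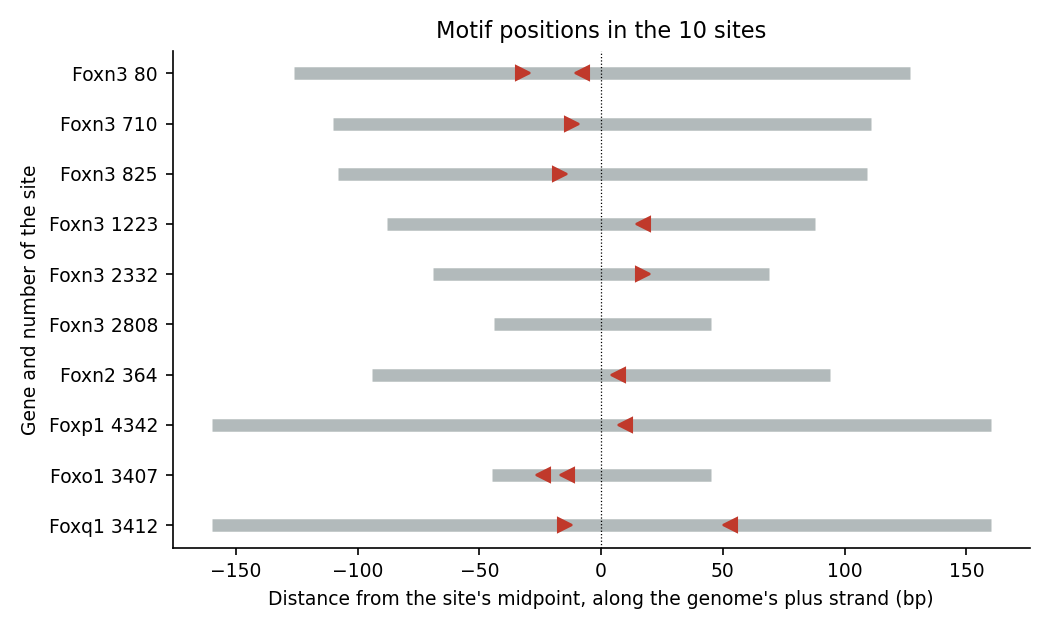
Grey bars show the extent of each of the 10 OS around its midpoint in bp along the plus strand, and red arrowheads the centres and strands of the WGATAR motifs inside. In 9 OS a motif stands within 17 bp of the midpoint, and the bar of *Foxn3* OS 2808 is empty.

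The windows beside the OS gave a comparison that the choice of genes did not use. Shifted 5000 bp to the right, windows as wide as the OS held WGATAR in 3 of 10 cases, and in 6 pairs only the OS held it while in 0 pairs only the window did (exact McNemar test, two-sided, p = 0.031). The difference was 60 percentage points. Windows 50000 bp to the right gave 80 points (exact McNemar test, p = 0.0078) and the central 100 bp gave 90 points (exact McNemar test, p = 0.0039). Windows to the left gave 50 points (exact McNemar test, p = 0.062), and the 4 OS outside *Foxn3* alone gave 50 points with p = 0.5 by the same exact test, where 4 pairs cannot go below 0.125. The pairs are OS of 1 pooled sample, and the p says nothing of the spread between mice. They are not independent units either, since 6 of the 10 OS lie at *Foxn3*, 5 of them within 49.6 kb. WGATAR was also in 82.9% of the other OS, and no rate for windows beside those is given. The test therefore shows nothing particular to these genes.

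A forkhead core, TGTTTAC or TATTTAC on either strand, occurred in 2 member OS, a share of 20.0% with a Wilson 95% interval from 5.67 to 51.0. Of the other OS, 9.0% contained such a core. *Foxn3* OS 710 held TGTTTAC, its centre 86 bp from that of the GATA motif, and *Foxp1* OS 4342 held TATTTAC at 142 bp. When TGTTTAT was accepted as well, a core added after the data were seen, *Foxq1* OS 3412 joined them. There the core shares letters with WGATAR, as AGATAA runs on into ACA, and both centres were 2 bp apart. With that core the share was 30% against 14.3% of the others. Such matches describe the letters only.

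None of the 10 OS lay within 1 kb of a TSS (Wilson 95% interval 0 to 27.8). Of the other OS, 18.0% did, which lies inside that interval, and the difference was not tested. The closest to a start of its own gene was *Foxn3* OS 825 at 1.44 kb. The rule admitted only OS in or near a member, which favours that gene as the nearest, so the following shares are descriptions. For 7 of the 10 the nearest TSS of any transcript was that of the member gene (70.0%, Wilson 95% interval 39.7 to 89.2), and for 9 when only protein-coding transcripts were used. The exception then was *Foxn3* OS 710, whose nearest TSS, at 107 kb, was that of 3300002A11Rik, a gene within *Foxn3* on the opposite strand. No OS lay in the body of 3300002A11Rik itself (chr12:100579364-100600037). OS 825 and OS 2332 were also within 50 kb of that gene, and OS 3412 within 50 kb of A530084C06Rik. The other 7 OS had no further protein-coding gene in reach.

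Across the 10 OS, list numbers went from 80 to 4342, with a median of 1777.5. The 4 earliest were *Foxn3* OS 80, *Foxn2* OS 364, *Foxn3* OS 710 and *Foxn3* OS 825, all among the leading 1000, and the 3 latest were those of *Foxo1*, *Foxq1* and *Foxp1*. Without *Foxn3* the median was 3409.5, of 4 OS. The other OS had a median of 2205 in the common list. By MACS2 number the median was 2159 for the 10 OS and 2195 for the other OS.

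**Figure D5:**
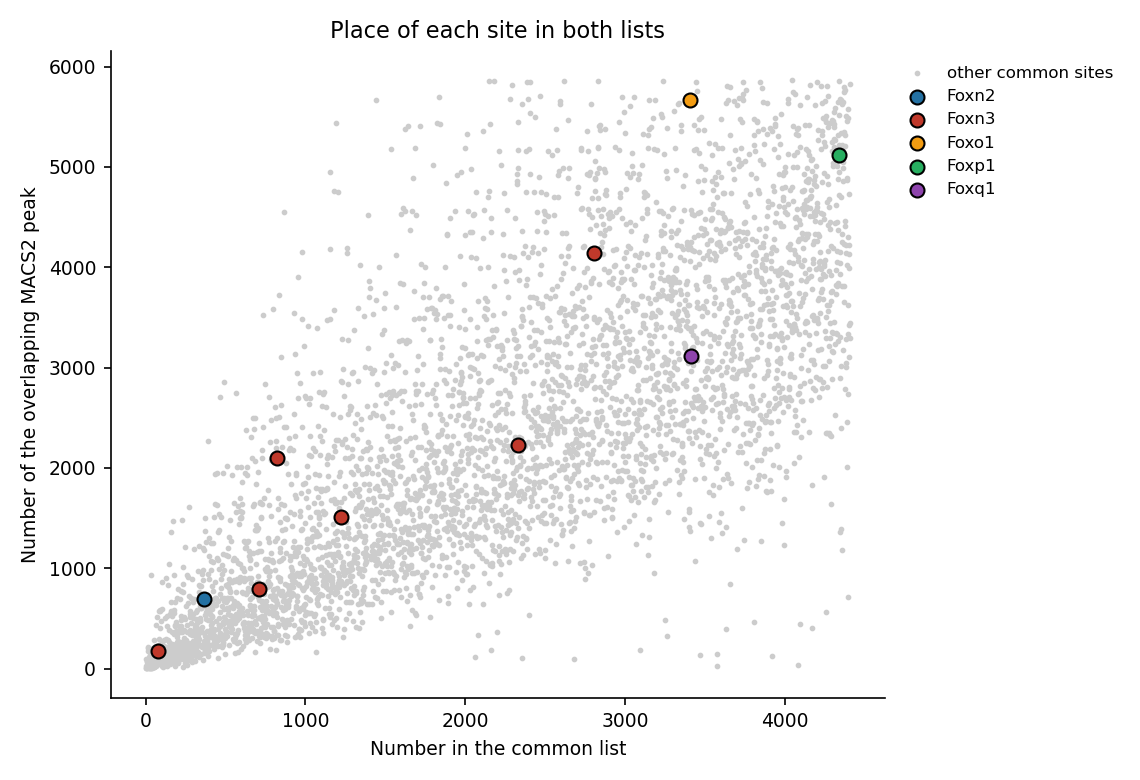
Each point is a common OS placed by its number in the common list and by the number of the MACS2 peak it overlaps, in grey for the 4399 other OS and in colour by gene for the 10. *Foxn3* OS 80 and *Foxn2* OS 364 sit in the lower left corner, and the OS of *Foxo1* (3407, 5663) and *Foxp1* (4342, 5122) at the upper right.

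In the whole family, 8 of the 44 forkhead genes of the annotation (18.2%) had an OS, which includes the 5 members, compared with 27.7% of all protein-coding genes. The median was 0 OS per gene in both. Outside the members, 3 of 34 genes had an OS, 1 each. These were *Foxk2*, the paralogue of *Foxk1*, with OS 2121 at 38.4 kb beyond its end, *Foxl1*, listed as a pseudogene in this annotation, with OS 2519 at 41.8 kb beyond its end, and *Foxr1* with OS 1157 at 46.9 kb upstream. Of the 3, the nearest TSS belonged to the forkhead gene only for *Foxl1*. *Foxa1*, *Foxa2* and *Foxa3*, the pioneer factors of liver, had none within 50 kb. Their nearest OS were 93.3, 98.3 and 212 kb away, and MACS2 alone had 1 peak at *Foxa1*.

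Insulin acts on FOXO proteins through its receptor, PI3-kinase and AKT, and FOXO proteins in turn drive glucose-producing genes. Of 30 genes listed for this pathway, *Foxo1* and *Foxo3* among them, 14 had at least 1 OS (46.7%, Wilson 95% bounds 30.2 and 63.9) and 16 had none, with a median of 0 per gene. The list was chosen with earlier results of these data known and includes *Foxo1*, so the interval covers counting only. The share over all protein-coding genes was 27.7%. The difference was not tested, and nothing is read from it. Upstream of FOXO, the insulin receptor gene *Insr* held OS 556 in its body, 22.9 kb from the TSS, the adaptor gene *Irs2* had OS 879 and OS 1573, and *Irs1* had OS 1098. *Pik3r1* and the FOXO kinase gene *Sgk1* had 1 and 2 OS. Among the targets and partners, *G6pc*, the last enzyme of glucose production, had OS 472 at 2.85 kb upstream of its TSS, and the coactivator gene *Ppargc1a* had OS 769 in its body. *Klf15*, a fasting factor, had 3 OS, *Trib1* had 2, and *Ccng2*, *Sesn1* and *Sesn3* had 1 each. Of the *Klf15* OS, OS 1442 and OS 1242 had the TSS of *Aldh1l1* as nearest, at 0.314 and 6.15 kb. Those of *Sesn1*, *Irs1*, *Irs2* and *Foxo1* also had the TSS of another gene as nearest. Only 10 of the 14 genes had the nearest TSS to any of their OS. The OS of *Ccng2* and *Sesn3* lay 117 and 102 bp upstream of the TSS, while the OS of *Foxo1* lay 74.6 kb inside the gene. *Pck1*, *Igfbp1*, *Akt1* and *Akt2* were among those without an OS.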

How the data were processed

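GATA4 ChIP-seq of whole liver was analysed from 3 deposited peak lists. The authors aligned reads to mm9 with Bowtie 0.12.7, kept unique reads, ran SPP and MACS2 2.0.10 against input with IDR thresholds, and intersected the lists with bedtools 2.16.1, keeping SPP coordinates. The score deposited by the authors is 1000 for every peak, so list numbers were used instead. Genes came from GENCODE M1 on NCBIM37, the assembly behind mm9. A peak belonged to a gene when its midpoint lay in the body or within 50 kb. Motifs were matched exactly on both strands. Shares carry Wilson 95% intervals. Windows were compared by an exact McNemar test. The members and lists were chosen with earlier results of these data known. All members, each *Foxn3* OS, the earliest OS of each other member and listed genes with an OS are named, except for a listed gene and a sequence that are not reported here. Other settings were tried, 54 listed at the outset and 2 chosen after seeing the data. Python 3.11.15, scipy 1.17.1, pysam 0.24.0 and samtools 1.23.1 were used. The motif scan was tested on simulated data and was right for 400 of 400 sequences. Input has no peak list.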

Additional observations from a re-analysis of the deposited data

How the results depend on the processing

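The number of OS at the members (9 to 14), of members with an OS (4 or 5) and of *Foxn3* OS (6 to 9) kept to these ranges under all 7 alternatives tried for each. The other lists moved with the distance. With 10 kb, 100 kb and the gene body alone, 4, 15 and 4 forkhead genes had an OS, beside 13.7%, 40% and 7.67% of all protein-coding genes, and the gene body alone left 7 insulin and FOXO genes. The WGATAR share became 100% in the central 100 bp, in 500 bp, with WGATA or GATAR, with the MACS2 list, without *Foxn3*, and with motifs over the edge, an alternative added after seeing the data. Of the other OS, 74.3% held WGATAR in the central 100 bp and 89.6% in 500 bp, and 92.8% held WGATA or GATAR. The difference from neighbouring windows was 50 points to the left and also 50 points without *Foxn3*, both above 0.05 in the exact test, and 80 points with windows 50000 bp to the right and 90.0 points in the central 100 bp, both below it. The share of OS in introns of their gene, which the choice of OS in or near a member favours, was 90.0%. It was 50% with the longest coding transcript by exon length, and for *Foxn3* that is the one with the shorter span. With protein-coding TSS the member was nearest for 90.0%. The median list number was 3409.5 without *Foxn3*, and 2159 for all 10 OS by MACS2 number. With 1 pooled peak list, replicate error could not be had, and depth limits what a missing peak means.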
